A study of Mus musculus with 6 samples.

Results

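The IFIT genes encode interferon-induced proteins with tetratricopeptide repeats, and the mouse genes Ifit1, Ifit2, Ifit3, Ifit3b and Ifit1bl1 were examined in microglia of a lupus model. The members were chosen by gene symbol, through Ensembl identifiers, and their counts were read in each of the 6 libraries. The 5 members were 5 of the 55401 genes in the deposited count table and 5 of the 19554 genes with enough counts to be tested. Microglia came from untreated 6-week-old mice of MRL/lpr, which carries the lpr mutation of the death receptor gene Fas and develops lupus-like disease, and of MRL/mpj, the control strain without lpr, with 3 libraries per strain. Brains were digested, cells were purified on a Percoll gradient and then selected magnetically for CD11b, a surface protein that other myeloid cells also carry. The labels describe removal of ribosomal RNA before a stranded library preparation, and the methods of the study describe purified mRNA. The mutation is present in every cell of MRL/lpr mice and not only in microglia. The methods name female mice, and the labels give no sex. The study counts 3 mice per strain, but nothing says that each library is 1 animal, so the p-values measure only the spread between these libraries, which may be technical.

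IFIT proteins carry no enzymatic activity and act by binding RNA or other proteins. IFIT1 holds capped RNA whose first nucleotide lacks 2′-O methylation, as on many viral RNAs, and keeps it from translation. In human cells, IFIT2 and IFIT3 are its usual partners. In most cells at rest the genes are expressed at low levels. Type I interferon signals through JAK1 and TYK2 to a complex that holds STAT2 and IRF9 and binds an interferon-stimulated response element with repeated GAAA units in their promoters.

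The genes lie side by side on chromosome 19 of GRCm38, the build named in the processing notes of the submitters. In GENCODE M21 the cluster runs from Ifit2 (chr19:34550694-34576419, plus strand) through Ifit3 (chr19:34583531-34588731, plus), Ifit1bl1 (chr19:34592891-34601956, minus) and Ifit3b (chr19:34607970-34613401, plus) to Ifit1 (chr19:34640871-34650009, plus). Ifit1bl2, a related gene that is no member here, lies between Ifit3b and Ifit1 on the minus strand (chr19:34617049-34640743). The 6 genes cover 99.3 kb and do not overlap each other. The main transcripts have 2 exons, except for Ifit2 and Ifit1bl2 with 3.

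The sequence before each start site is shown because it holds the letters that interferon-activated factors are known to bind, and because the members differ in them. The lines give the 250 bases before the RefSeq start (GRCm38.p6), 5′ to 3′ on the strand of the gene, and for Ifit1 the whole gap of 127 bases that separates it from Ifit1bl2 in GENCODE M21, on the plus strand. Capitals mark the 10-letter motif GAAANNGAAA or its reverse complement TTTCNNTTTC, and overlapping matches were allowed.
Ifit2, chr19:34550444-34550693, plus strand: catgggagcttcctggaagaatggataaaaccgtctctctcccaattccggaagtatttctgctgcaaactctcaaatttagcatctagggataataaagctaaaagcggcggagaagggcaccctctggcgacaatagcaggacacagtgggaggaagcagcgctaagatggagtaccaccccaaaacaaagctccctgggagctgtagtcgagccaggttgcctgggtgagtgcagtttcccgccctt
Ifit3, chr19:34583279-34583528, plus strand: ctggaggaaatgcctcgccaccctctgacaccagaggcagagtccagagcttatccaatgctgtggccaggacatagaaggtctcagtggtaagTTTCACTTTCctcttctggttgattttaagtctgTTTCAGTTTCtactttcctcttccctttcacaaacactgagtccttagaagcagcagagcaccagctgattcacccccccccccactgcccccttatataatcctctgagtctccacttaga
Ifit3b, chr19:34607707-34607956, plus strand: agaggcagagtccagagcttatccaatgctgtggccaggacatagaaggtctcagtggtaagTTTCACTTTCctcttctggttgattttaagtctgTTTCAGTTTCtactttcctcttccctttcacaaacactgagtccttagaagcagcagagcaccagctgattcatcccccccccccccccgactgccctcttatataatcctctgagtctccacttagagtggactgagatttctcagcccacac
Ifit1bl1, chr19:34601969-34602218, minus strand: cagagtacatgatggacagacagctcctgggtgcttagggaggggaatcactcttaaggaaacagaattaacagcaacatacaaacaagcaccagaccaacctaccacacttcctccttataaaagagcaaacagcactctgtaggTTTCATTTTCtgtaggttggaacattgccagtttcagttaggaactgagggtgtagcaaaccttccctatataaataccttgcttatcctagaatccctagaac
Ifit1, chr19:34640744-34640870, plus strand: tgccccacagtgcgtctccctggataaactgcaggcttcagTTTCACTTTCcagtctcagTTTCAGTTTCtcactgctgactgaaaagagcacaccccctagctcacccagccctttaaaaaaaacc

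Ifit3 and Ifit3b each held 2 matches, TTTCACTTTC and TTTCAGTTTC, which began at positions -156 and -122 from the RefSeq start of Ifit3, and at -188 and -154 from that of Ifit3b. The same 2 words lay before Ifit1, at -104 and -85 from its RefSeq start. Since this gap is shared, they are also the matches of Ifit1bl2, which read GAAACTGAAA and GAAAGTGAAA on its own strand, at -70 and -51. Ifit1bl1 had 1 match, TTTCATTTTC, in each of its 2 RefSeq windows, at -104 from the first start, whose sequence is shown, and at -23 from the other (chr19:34599441-34599450). Ifit2 had no match in either of its 2 RefSeq windows, which says only that these letters are not there. Sequence outside the windows at these annotated starts was not searched, so Ifit2 may hold the motif elsewhere. Over all RefSeq promoter windows, which run from 250 bases before to 50 bases after a start, 1131 of 32851 (3.44%) held the motif and 0.225% held it 2 or more times, so that 4 of 5 members held it against 3.99% of the 27025 genes with a window. A match is a description and not a bound site.

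Total counts were 45481609 to 49846634 per library. Far more genes had exactly 4 counts than had 3 or 5 (1234 against 377 and 254 in MRL/lpr replicate 1), which points to 4 counts for each read pair. Pairs of libraries that held MRL/lpr replicate 3 and another MRL/lpr library differed most, with a median ratio of the squared difference to the variance from counting read pairs of 3.09 and 3.12, against 1.05 to 1.38 for the other pairs within a strain and 0.455 from counting alone. Microglial markers such as Tmem119 and Csf1r were abundant, and the 12 together held 23560.3 to 26121.6 CPM in MRL/lpr and 27208.0 to 27903.0 CPM in MRL/mpj. CPM are counts scaled to a common library size with TMM, which corrects for differences in library composition. Xist had 8886 to 11319 counts in MRL/lpr and 27 to 38 in MRL/mpj, whereas 4 Y-linked genes summed to 8408 to 11783 counts in MRL/lpr and 13155 to 15046 in MRL/mpj. Each MRL/lpr library thus held transcripts of both sexes, and each MRL/mpj library those of males, although the methods name female mice. How many animals of each sex went into a library was not tested. Xist and the Y-linked genes were looked at after their values were seen, and effects of strain and of sex cannot be told apart here.

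To compare the strains, the counts of all genes were tested with edgeR's quasi-likelihood test. A gene was called where its absolute log2 fold change was at least 1 and its Benjamini-Hochberg adjusted p-value was under 0.05. Ifit1, Ifit3, Ifit3b and Ifit1bl1 were upregulated in MRL/lpr microglia, by between 2.62-fold and 10.2-fold. These 4 of the 5 members were called, where 4.67% of all tested genes were called as higher. As lower, 0 of 5 were called, where 3.66% of all tested genes were. All MRL/lpr libraries lay above all MRL/mpj libraries in CPM for 4 of the 5 members, where 19.6% of all tested genes did so. The members were chosen with earlier results of these data known, so these shares are a description. The fifth, Ifit2, was the most abundant member in 5 of the 6 libraries and was far below its level in the other MRL/lpr libraries in MRL/lpr replicate 3. In these bulk samples, fewer cells with high expression and less RNA per cell cannot be told apart.

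**Figure D1:**
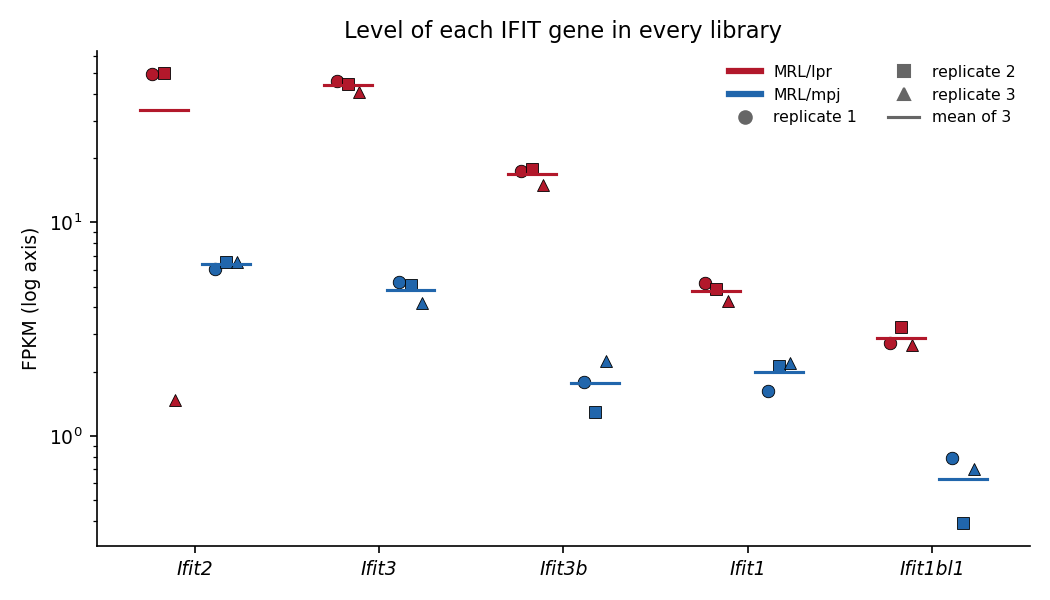
Deposited FPKM (fragments scaled to gene length and sequencing depth, log axis) of the 5 members, with circles, squares and triangles for replicates 1, 2 and 3, MRL/lpr in red, MRL/mpj in blue and a bar at the arithmetic mean of each strain. All red symbols stand above all blue ones for 4 genes. In CPM, such an order held for 19.6% of all tested genes. For Ifit2 the red triangle (1.47 FPKM) stands below the blue symbols (6.04 to 6.54 FPKM).

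The human IFIT3 protein stabilizes IFIT1 and forms complexes with it, which was not tested here for the mouse gene. Ifit3 was counted 4345, 4222 and 3611 times in replicates 1, 2 and 3 of MRL/lpr, and 506, 476 and 409 times in those of MRL/mpj. The lowest MRL/lpr library was 8.78 times the highest MRL/mpj library in CPM. The mean level was 89.5 ± 3.01 CPM in MRL/lpr and 9.08 ± 1.06 CPM in MRL/mpj (SD, n = 3 each). Ifit3 had the smallest standard error of the members (log2 fold change 3.30, SE 0.11, edgeR adjusted p = 1.77e-07), which corresponds to a 9.86-fold increase.

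Ifit3b, a near copy of Ifit3, had 1887, 1933 and 1521 counts in MRL/lpr and 197, 140 and 253 in MRL/mpj. All MRL/lpr libraries were higher, the lowest by 7.48 times in CPM over the highest MRL/mpj library. The means were 39.2 ± 2.47 and 3.83 ± 1.03 CPM (SD, n = 3 each). Its increase was 10.2-fold (log2 fold change 3.35, SE 0.19, edgeR adjusted p = 3.4e-06).

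Values of Ifit3 and Ifit3b are less certain than their counts make them look, because reads may have been split between both genes. Their coding sequences of 1209 bases each differed at 11 positions (99.1% identical), and the aligned part of their promoter windows was also 99.1% identical over 218 bases. Of all stretches of 150 bases, the read length, 18.5% in the Ifit3 transcript and 16.0% in the Ifit3b transcript were found unchanged in the other gene. How the authors counted reads that fit both genes is not given in the sources used here. Ifit1, Ifit2 and Ifit1bl1 shared 1.24%, 0.0% and 0.0% of such stretches with any other gene, and the coding sequence of Ifit1 was 77.3% identical to that of Ifit1bl1.

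Ifit1, whose protein recognizes unmethylated caps, had 749, 703 and 575 counts in MRL/lpr and 239, 305 and 327 in MRL/mpj. The groups did not overlap, and the lowest MRL/lpr library had 2.19 times the CPM of the highest MRL/mpj library. Mean levels were 14.9 ± 1.09 and 5.68 ± 0.895 CPM (SD, n = 3 each). Ifit1 had the smallest increase of the members that were called, 2.62-fold (log2 fold change 1.39, SE 0.16, edgeR adjusted p = 0.000285).

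Ifit1bl1, an IFIT1-like gene, had 332, 396 and 308 counts in MRL/lpr and 99, 47 and 89 in MRL/mpj, the lowest of the members in each library but MRL/lpr replicate 3, where Ifit2 was lower. The strains did not overlap here either. With 4 counts per read pair, its lowest MRL/mpj library rested on about 12 read pairs, against 35 for Ifit3b, 60 for Ifit1, 74 for Ifit2 and 103 for Ifit3 in their lowest libraries. The means were 7.61 ± 0.708 and 1.53 ± 0.518 CPM (SD, n = 3 each), a 4.98-fold increase (log2 fold change 2.32, SE 0.28, edgeR adjusted p = 0.00038). Its neighbour Ifit1bl2 had 45, 31 and 46 counts in MRL/lpr and 35, 25 and 23 in MRL/mpj. These ranges overlapped, and Ifit1bl2 was not called (log2 fold change 0.74, SE 0.48, edgeR adjusted p = 0.34).

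The human counterpart of Ifit2 partners IFIT1 and IFIT3 and has also been linked to apoptosis. Ifit2 reached 10474 and 10618 counts in replicates 1 and 2 of MRL/lpr but 293 in replicate 3. The MRL/mpj libraries had 1312, 1377 and 1437 counts. Replicates 1 and 2 were thus well above MRL/mpj, replicate 3 was below each MRL/mpj library, and the strains overlapped. In CPM, replicates 1 and 2 were 31.8 and 32.2 times replicate 3, and the MRL/mpj mean was 3.84 times replicate 3. The MRL/lpr mean of 151.8 ± 125.4 CPM therefore had an SD close to its own size, whereas the MRL/mpj mean was 26.9 ± 1.19 CPM (n = 3 each). Ifit2 was not called with all libraries (log2 fold change 2.50, SE 1.28, edgeR adjusted p = 0.283). Without MRL/lpr replicate 3 the log2 fold change was 3.06 (SE 0.06, edgeR adjusted p = 3.74e-08). The mean of the 2 remaining MRL/lpr libraries was 8.33 times that of MRL/mpj in CPM. Since this fit drops the library that differed, its small SE and p do not test an increase of Ifit2. With any other library left out instead, Ifit2 was not called (edgeR adjusted p = 0.468 to 0.491).

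The drop in MRL/lpr replicate 3 was seen for Ifit2 and for no other member. There, Ifit1, Ifit3, Ifit3b and Ifit1bl1 were at 0.891, 0.949, 0.896 and 0.952 times the mean CPM of the other MRL/lpr libraries. Ifit2 differed by -4.90 on the log2 scale (CPM plus 0.5), and 65 other genes of the interferon pathway had a median of -0.08, from -1.06 for the cap methyltransferase gene Cmtr2 to 0.52. Over all tested genes, 95% of the differences lay between -0.87 and 0.83, and 2 genes, Ifit2 included, were as low as Ifit2. A jump was counted where 1 library stood at least 8-fold from both others of its strain while those were within 2-fold of each other. Such jumps were found in 33 of 19554 genes (0.169%), with 14 of them in MRL/lpr replicate 3, 7 upwards and 7 downwards. The septin gene Sept2 fell in the same library (4997 and 4929 counts in replicates 1 and 2, 205 in replicate 3), and the chemokine receptor gene Cx3cr1 jumped in another (10645, 132706 and 10334 counts in MRL/lpr replicates 1, 2 and 3). Upward jumps in MRL/lpr replicate 3 included CT010467.1, with 123966, 160432 and 2902393 counts in MRL/lpr replicates 1, 2 and 3. Its count in replicate 3 was part of a library total of 45481609. The noncoding RNA gene Rn7sk also rose there (764, 1034 and 8434 counts). These genes are named because they jumped, after their values were seen. What set these single libraries apart was not tested.

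**Figure D2:**
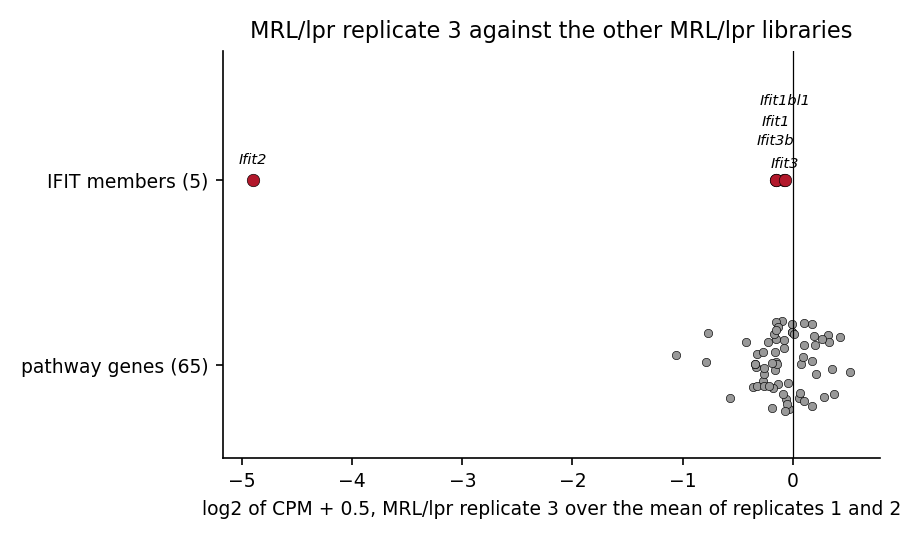
Log2 of the CPM plus 0.5 in MRL/lpr replicate 3 over that of the mean of replicates 1 and 2, for the 5 members (red, upper row) and 65 other interferon pathway genes (grey, lower row, spread vertically at random). Ifit2 stands alone at -4.90, and the other members lie near 0.

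Levels of different members can be compared only per length, for which the deposited FPKM were used. Ifit2 came first and Ifit3 next in 5 libraries, with Ifit2 at 49.46 and 50.03 FPKM in MRL/lpr replicates 1 and 2 and 1.47 in replicate 3. Ifit3 had 46.16, 44.77 and 40.82 FPKM in MRL/lpr and 5.24, 5.07 and 4.19 in MRL/mpj. Ifit2 was at 1.07 and 1.12 times its neighbour Ifit3 in MRL/lpr replicates 1 and 2, and at 1.15 to 1.56 times in MRL/mpj. In MRL/lpr replicate 3, where Ifit2 was low, it was at 0.036 times Ifit3. These ratios, and the order of the 2 genes, depend on how reads were split between Ifit3 and Ifit3b, which is not given.

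Ifit3b followed at 15.00 to 17.88 FPKM in MRL/lpr and 1.30 to 2.25 in MRL/mpj, and Ifit1 at 4.27 to 5.23 and 1.62 to 2.20. These 2 genes stood clearly apart in MRL/lpr but not in MRL/mpj, where their ranges overlapped and replicate 2 had them in the other order. Ifit1bl1 was below both, with 2.68 to 3.24 FPKM in MRL/lpr and 0.39 to 0.79 in MRL/mpj. The 5 members summed to 121.0, 120.8 and 64.2 FPKM in MRL/lpr and 15.5, 15.4 and 15.9 in MRL/mpj. Without Ifit2 the sums were 71.6, 70.8 and 62.8 in MRL/lpr and 9.4, 8.9 and 9.3 in MRL/mpj, so that the gap of MRL/lpr replicate 3 in the sum came mostly from Ifit2.

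The proportions of the members were compared between strains by ratios of FPKM within a library. The FPKM of Ifit3 was 8.83, 9.16 and 9.56 times that of Ifit1 in MRL/lpr and 3.23, 2.38 and 1.90 times in MRL/mpj, without overlap. The mean log2 ratio was 3.20 ± 0.06 in MRL/lpr and 1.29 ± 0.38 in MRL/mpj (SD, n = 3 each), a difference of 1.91 (two-sided exact permutation test, p = 0.1, adjusted p = 0.15 over 3 ratios). For Ifit1 over Ifit1bl1 the mean log2 ratio was 0.74 ± 0.19 in MRL/lpr and 1.71 ± 0.71 in MRL/mpj, a difference of -0.97 (SD, n = 3 each, exact permutation p = 0.1, adjusted p = 0.15), and for Ifit3 over Ifit3b it differed by -0.08 (exact permutation p = 0.7). With 3 libraries per strain the smallest p this test can give is 0.1, so none of the ratios could pass 0.05.

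Across the 6 libraries, log2 CPM of Ifit3 and Ifit3b had a Pearson correlation of 0.983, and those of Ifit1 and Ifit3 of 0.969. Ifit2 had 0.386 to 0.453 with the other members. These values are a description, since the libraries fall into 2 strains and any gene that differs between strains correlates with another. The genes most like each member were sought among 14917 genes with at least 1 CPM on average. For Ifit3 they were Oasl1, a relative of the oligoadenylate synthetases, Hpgd, which breaks down prostaglandins, the GTPase genes Tgtp2 and Tgtp1, and the class I gene H2-T23, with correlations of 0.999 to 1.0. Oasl1 had 2149, 1935 and 1712 counts in MRL/lpr and 353, 347 and 290 in MRL/mpj, and Hpgd had 9626, 9551 and 7335 against 805, 757 and 690.

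For Ifit2 the most alike were Gpbp1, Cd53, Zfp990, Rbm39 and Dhx15, with correlations of 0.984 to 0.994. None of these was called, and they shared lower counts in MRL/lpr replicate 3. Gpbp1 had 3938, 3933 and 2836 counts in MRL/lpr and 3788, 3713 and 3767 in MRL/mpj, so its range was far narrower than that of Ifit2. The nearest genes of Ifit1 were A530032D15Rik, Arl5c, Kif20a, B4galt5 and Cd80, those of Ifit3b were AK157302, Cnbd2, Spint1, Uhrf1 and Chka, and those of Ifit1bl1 were Gm15964, Ttk, Taf4b, Orm2 and Trem1.

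The pathway that induces the IFIT genes, together with other genes that it induces, was read from 73 listed genes, of which 65 were tested. Of these, 25 were called as higher in MRL/lpr and 0 as lower, and their median log2 fold change was 0.64, beside -0.01 over all tested genes. Without the list of 23 other interferon-induced genes, 7 of 42 were called as higher and 0 as lower, with a median of 0.18. With the adjusted p alone, 35 of the 65 were higher and 2 lower (13 and 2 of the 42), against 11.1% and 9.06% of all tested genes. Of all tested genes, 4.67% were called as higher and 3.66% as lower, which is 8.34% in either direction. The lists were chosen with earlier results of these data known, so their shares are a description and not a test.

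Among 10 sensors of foreign nucleic acid, 3 were called as higher, against 4.67% of all tested genes, and the list had a median of 0.46. Zbp1, which senses Z-form nucleic acid, had 947, 1032 and 856 counts in MRL/lpr and 50, 64 and 72 in MRL/mpj (log2 fold change 4.10, SE 0.17, edgeR adjusted p = 8.41e-07). Dhx58, encoding LGP2, and Ddx58, encoding RIG-I, rose with log2 fold changes of 1.85 and 1.21 (edgeR adjusted p = 3.21e-06 and 7.33e-05). Ifih1, encoding MDA5, passed the adjusted p but not the fold minimum, at 0.54 (edgeR adjusted p = 0.00511). Endosomal Tlr7 was uneven between libraries (14386, 5836 and 12888 counts in MRL/lpr, 4604, 11935 and 8371 in MRL/mpj) and was not called.

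Most interferon transcripts were at or near 0. Of the 10 ligand genes 2 could be tested and neither was called. Ifnb1, encoding interferon beta, had 380, 481 and 279 counts in MRL/lpr and 597, 658 and 717 in MRL/mpj, and all MRL/lpr libraries were lower (log2 fold change -0.63, SE 0.18, edgeR adjusted p = 0.0336). Ifng, encoding interferon gamma, had 64, 71 and 26 counts in MRL/lpr and 5, 26 and 31 in MRL/mpj (log2 fold change 1.52, SE 0.68, edgeR adjusted p = 0.159). The 4 listed interferon alpha genes had 0 counts in all libraries, except for 4 counts of Ifna2 in MRL/lpr replicate 2. A count of 0 still allows up to 3 read pairs in a library, by counting error alone.

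None of 7 receptor and kinase genes reached the fold minimum, and their median was 0.07. Of all tested genes 8.34% were called in either direction, a share at which a list this short would often hold no call. The type I receptor genes Ifnar1 and Ifnar2 had log2 fold changes of -0.09 and 0.07 and did not pass the test. Jak1 was higher at 0.53 and Tyk2 at 0.28, and the interferon gamma receptor gene Ifngr1 was lower at -0.76 (edgeR adjusted p = 0.000234, 0.0144 and 5.22e-05).

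Of 9 transcription factor genes, 3 were called as higher, against 4.67% of all tested genes. Stat2 had 5284, 5109 and 3954 counts in MRL/lpr and 2361, 1906 and 2731 in MRL/mpj (log2 fold change 1.21, edgeR adjusted p = 0.000126). Irf9, whose product partners STAT2, was higher by 0.64 and so below the fold minimum (edgeR adjusted p = 0.00519). Irf7, which amplifies the response, rose most in this list, with 2375, 2410 and 1916 counts in MRL/lpr and 308, 349 and 379 in MRL/mpj (log2 fold change 2.86, edgeR adjusted p = 4.66e-07).

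Of 5 feedback inhibitors, 1 was called as higher, against 4.67% of all tested genes. It was Usp18, whose product blocks the type I receptor and removes ISG15. Usp18 had 1216, 1270 and 1351 counts in MRL/lpr and 218, 222 and 222 in MRL/mpj (log2 fold change 2.72, edgeR adjusted p = 1.48e-06). Socs3 was higher by 0.38 (edgeR adjusted p = 0.00201), under the fold minimum. The list of genes for cap methylation and for the translation factor eIF3, to which IFIT proteins bind, also held Eif4e. It gave 0 calls among 9, with a median of -0.01, where 8.34% of all tested genes were called in either direction. At that share a list this short would often hold no call. Cmtr2 and Eif4e were uneven between libraries, with SE of 0.79 and 0.48, so the lack of a call says little for them. The methyltransferase gene Cmtr1, whose product adds the 2′-O methyl mark that RNA held by IFIT1 lacks, was higher by 0.41 (edgeR adjusted p = 0.00535).

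Among 23 other antiviral genes induced by interferon, 18 were called as higher, against 4.67% of all tested genes, and the median was 1.52. All 23 had each MRL/lpr library above each MRL/mpj library in CPM, where 19.6% of all tested genes did. This list was chosen with earlier results of these data known, so the comparison is a description. Ifi44 had 6001, 6119 and 5079 counts in MRL/lpr and 209, 198 and 118 in MRL/mpj, with a log2 fold change of 5.20 (edgeR adjusted p = 2.93e-06). Oas3, Mx1 and Rsad2, which act on viral RNA, viral nucleocapsids and viral replication, rose by 3.10, 2.69 and 1.52 on the log2 scale (edgeR adjusted p = 4.99e-05, 4.89e-06 and 1.46e-05). The IFIT log2 fold changes, from 1.39 to 3.35, lay within the range of this list, from 0.69 for Ifi35 to 5.20 for Ifi44. Of the 17 genes of this list with a RefSeq promoter window, 7 held the GAAANNGAAA motif.

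**Figure D3:**
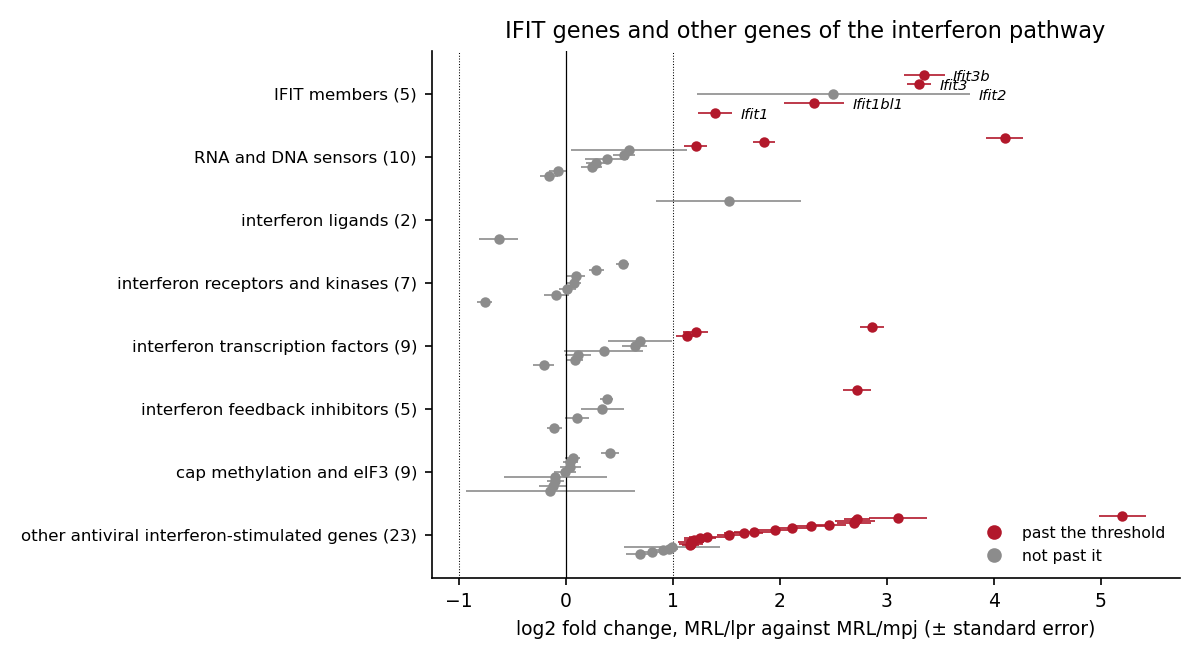
Log2 fold change of MRL/lpr against MRL/mpj with its standard error for each tested gene, 1 point per gene, grouped into the 5 members and the 7 pathway lists (numbers tested in brackets). Red marks genes past the threshold, dotted lines mark a log2 fold change of 1 in either direction, and the red points lie mostly among the IFIT members and the 23 other antiviral genes.

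The neighbourhood was examined because Fas, the gene mutated in lpr, lies 222.9 kb from the cluster. Within 500 kb of the cluster lay 29 other genes, of which 10 were tested. Of these, 0 were called as higher and 2 as lower, against 4.67% and 3.66% of all tested genes. Fas had 461, 282 and 298 counts in MRL/lpr and 426, 432 and 362 in MRL/mpj and was not called (log2 fold change -0.06, SE 0.21, edgeR adjusted p = 0.887). Total counts over Fas do not check the mutation, since they do not show the transcript structure. The called neighbours were Acta2, encoding smooth muscle actin (log2 fold change -1.90, edgeR adjusted p = 1.97e-06), and the transporter gene Slc16a12 (-1.57, edgeR adjusted p = 0.0125). Lipa, the nearest tested gene before Ifit2, was higher by 0.41 (edgeR adjusted p = 0.00193), which is below the fold minimum.

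**Figure D4:**
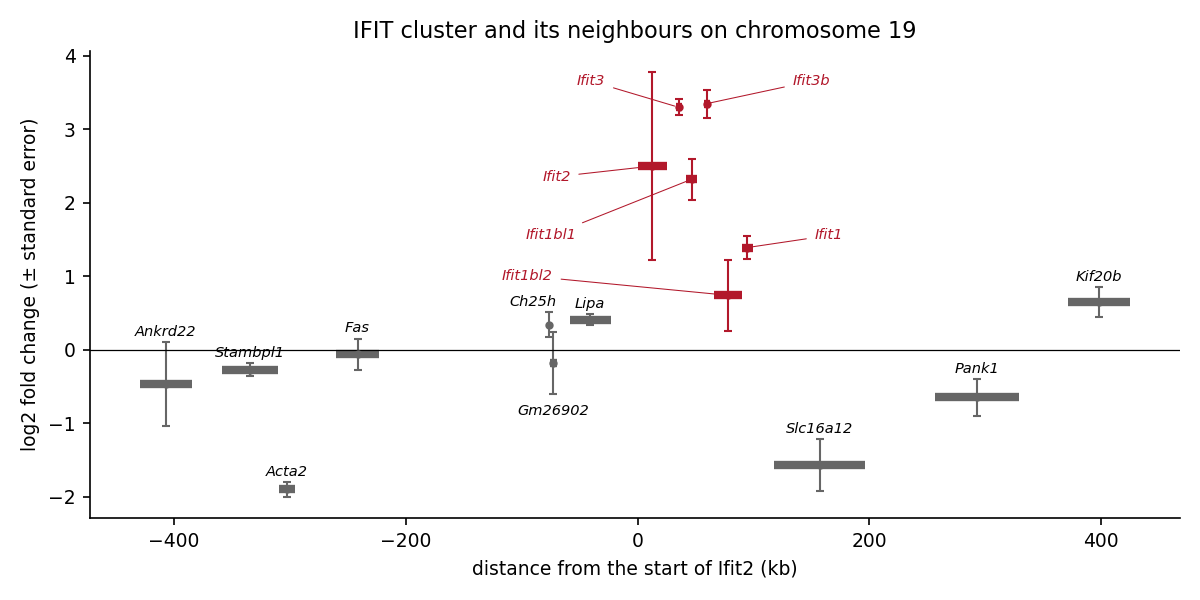
Log2 fold change with its standard error (vertical axis) of the 6 IFIT cluster genes (red) and the 10 tested neighbours (grey) by distance from the start of Ifit2 in kb, with thick bars for the extent of each gene. The 5 members stand above 1, Ifit1bl2 is at 0.74, and the neighbours lie between -1.90 and 0.65.

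Markers of other cells differed between the strains in both directions, and some lists had no call. Over all tested genes, 4.67% were called as higher and 3.66% as lower. For B and plasma cells, 2 of 6 markers were called as higher. The list summed to 23.4 to 28.3 CPM in MRL/lpr and 9.53 to 11.3 CPM in MRL/mpj, where Mzb1 was at 0. Jchain alone held 13.8 to 16.7 CPM in MRL/lpr, and Cd79b was lower without being called (log2 fold change -0.30, edgeR adjusted p = 0.276). For T and NK cells, 3 of 6 were called as higher, with sums of 7.68 to 10.4 and 2.04 to 3.74 CPM. Monocyte markers had 1 of 6 called in each direction (75.6 to 84.7 and 82.8 to 89.8 CPM), and neutrophil markers 0 of 7 (570.3 to 652.8 and 444.7 to 505.4 CPM). For plasmacytoid dendritic cells, which are strong producers of interferon, 1 of 6 was called as lower (144.3 to 177.1 and 134.4 to 159.3 CPM). These sums were mostly Tcf4, with 126.4 to 161.7 CPM in MRL/lpr and 109.3 to 134.8 CPM in MRL/mpj. With the adjusted p alone, 2 of the 6 were lower and 0 higher, against 9.06% and 11.1% of all tested genes. Border macrophage markers had 1 of 6 called as lower (50.7 to 52.1 and 54.9 to 63.4 CPM), and microglial markers 1 of 12 called as lower and 0 as higher.

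Markers of ependyma and choroid plexus had 5 of 6 called as lower in MRL/lpr (573.4 to 579.6 against 1904.9 to 2061.7 CPM). Neuron and oligodendrocyte markers had 2 of 6 called as lower each (22.3 to 28.3 against 37.6 to 43.0 CPM, and 129.6 to 152.6 against 163.8 to 195.4 CPM). Astrocyte and endothelial markers had 0 of 6 called (112.4 to 157.7 against 192.3 to 197.9 CPM, and 1659.5 to 1827.9 against 1473.2 to 1526.9 CPM). The part of these cells in the IFIT levels was not tested.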

How the data were processed

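Microglial RNA from 3 MRL/lpr and 3 MRL/mpj libraries was sequenced as pairs of 150-base reads. Per the methods, the authors used Cutadapt for filtering, HISAT2 for alignment and DESeq2 for testing. The submitters' processing notes name cutadapt 1.9.3, HISAT2 2.0.4, Cufflinks, Cuffdiff 2.2.1 and GRCm38. The counting tool and annotation are not given in the sources used here. The authors deposited raw counts per gene, without normalization, and the deposited FPKM are per gene length and depth. GENCODE M21 matched 55141 of 55401 identifiers.

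Counts were filtered with filterByExpr (minimum count 10, minimum total 15), scaled with TMM and tested with robust fits of edgeR 4.0.16 (R 4.3.3), without covariates. The common biological coefficient of variation was 0.26. Correlations used log2 CPM with a prior count of 2. Sequences came from RefSeq tables, and each member had a promoter window. Shared stretches and coding identities came from GENCODE transcripts.

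Named genes were the members, Ifit1bl2, pathway lists, neighbours within 500 kb, cell type markers and the 5 genes most correlated with each member. Some genes that this covers are not reported here. The members and lists were chosen with earlier results of these data known. Alternative settings covered DESeq2 1.42.0, 2 further normalizations, 2 further filters, fits that are not robust, a replicate block, counts divided by 4, limma 3.58.1 on FPKM, and each library left out. The code was tested on simulated data. Each library was counted as 1 replicate, as labelled. Total counts of 45481609 to 49846634 limit precision mainly for genes with few read pairs.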

Additional observations from a re-analysis of the deposited data

How the results depend on the processing

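Ifit3, Ifit3b and Ifit1bl1 stayed called as higher under all 16 alternatives, with log2 fold changes of 2.95 to 3.36, 2.69 to 3.56 and 1.26 to 2.52. Ifit1 stayed called except with limma on log2(FPKM + 1), where its change was 0.96, under the fold minimum of 1, with a limma adjusted p of 0.00228. On the same scale, which understates the change of low genes, 614 genes in place of 1630 and 16 pathway genes in place of 25 were called. Ifit2 was called only without MRL/lpr replicate 3 (3.06), and leaving out a library gave 2.10 to 3.06, other alternatives 1.28 to 2.51. With any 1 library left out, 1398 to 1650 genes, 4 to 5 members and 25 to 26 pathway genes were called. Scaling by library size only turned the split of all calls from 914 higher and 716 lower to 766 higher and 932 lower, with 4 members called. Deviations of same-numbered libraries had correlations of -0.071, -0.023 and -0.124, and those of libraries with different numbers -0.074 to 0.118. With 3 libraries per strain, these values cannot show whether libraries were prepared in pairs by number. With a replicate block 1422 genes were called, the same 4 members among them, and the log2 fold change of Ifit2 was 1.77 (edgeR adjusted p = 0.649). Members with few read pairs, Ifit1bl1 above all, are limited by depth.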
